A study of Mus musculus with 2 samples.

Results

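Nnt encodes nicotinamide nucleotide transhydrogenase, and in the annotation used for these data its symbol belongs to 2 gene identifiers that overlap along their whole length. All gene identifiers with the symbol Nnt and all their transcripts were taken, which gave 2 of 55536 annotated genes and 6 of 141767 annotated transcripts. The symbol was picked with values of these tables known, so levels and splits are given as descriptions, with no test. Total RNA was sequenced from the gastrocnemius, a calf muscle, of male mice aged 4 days of the hybrid strain B6CASTF1/J. There was 1 group of 2 libraries, for which 300 ng of RNA and added ERCC control RNAs were used. The labels give them as biological replicates with separate animal numbers under 1 shared donor record. No treatment was labelled, and both libraries share strain, sex, age and tissue. With 2 animals in 1 group the smallest two-sided exact sign-flip p is 0.5, and no test was run.

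The transhydrogenase sits in the inner mitochondrial membrane and uses the proton gradient to pass hydride from NADH to NADP, which makes NADPH inside the mitochondrion. That NADPH keeps glutathione and thioredoxin reduced, and so feeds the enzymes that remove peroxides. The inbred strain C57BL/6J, from which the mm10 reference genome was built, is known to carry a deletion of several exons in Nnt. By its name, the hybrid has C57BL/6J and CAST parents. Exons missing from the reference have no entry in the annotation, so counts here cover only the exons that mm10 holds. Reads were not assigned to parents here.

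The locus lies on the minus strand of chromosome 13 of mm10. Identifier ENSMUSG00000025453.18 runs from 119335448 to 119408997 and holds the transcripts Nnt-201 to Nnt-205. Identifier ENSMUSG00000116207.1 runs from 119335528 to 119408952 and holds Nnt-206 alone. Both are annotated as protein-coding. The longest transcript, Nnt-202, has 17 exons and 3464 nt, and Nnt-206 has 17 exons and 3339 nt. The sequence of Nnt-206 lies whole inside that of Nnt-202, which extends 45 nt further at the 5′ end and 80 nt further at the 3′ end. The remaining 15 exons have the same boundaries, and both transcripts have the same coding sequence of 835 codons. Nnt-202 and Nnt-206 thus differ in their untranslated ends only.

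Nnt-201 differs from Nnt-202 by leaving out 2 exons. These are exon 8 (119374629 to 119374774, 146 nt) and exon 9 (119372396 to 119372591, 196 nt), both coding. They are numbered as in Nnt-202 and are present in mm10, so neither is an exon missing from the reference. Together they make 342 nt, or 114 codons with no remainder, so the 721-codon reading frame of Nnt-201 goes on unshifted. Nnt-203 has 14 exons. It reads past the end of exon 14 into the next intron, where its frame of 713 codons stops. Nnt-204 and Nnt-205 are annotated as retained introns, with 5 and 4 exons from the 5′ part of the locus and no coding sequence. No other annotated gene overlaps the locus.

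**Figure D1:**
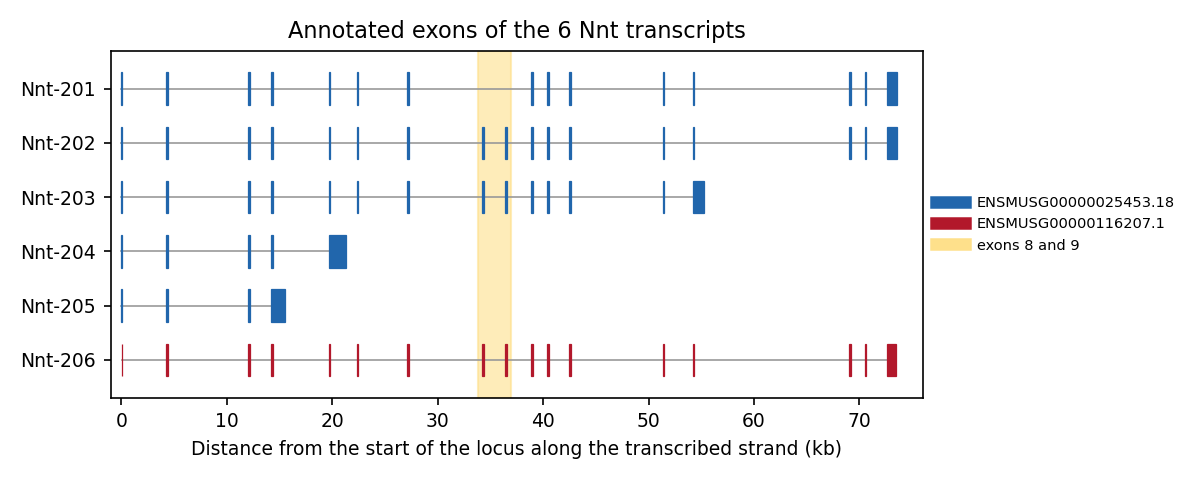
Exons of the 6 Nnt transcripts drawn to scale as boxes along the transcribed strand, with the x axis in kb from the 5′ end of the locus. The 5 transcripts of ENSMUSG00000025453.18 are blue, Nnt-206 is red, and the shaded band marks exons 8 and 9, which Nnt-201 lacks.

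Sequences at the exon joins show what a read must cover to tell the transcripts apart. They come from the GENCODE M21 transcripts on mm10, read 5′ to 3′ along the minus strand, with the upstream exon in lower case and what follows it in capitals. The first 2 are held by Nnt-202, Nnt-203 and Nnt-206, and the next by Nnt-201 alone. The fourth is held by Nnt-201, Nnt-202 and Nnt-206, and the last, whose capitals are intron sequence up to the stop codon, by Nnt-203 alone.
Exon 7 to exon 8: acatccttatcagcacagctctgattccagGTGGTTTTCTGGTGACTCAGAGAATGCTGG
Exon 9 to exon 10: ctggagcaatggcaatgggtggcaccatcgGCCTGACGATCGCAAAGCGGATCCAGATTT
Exon 7 to exon 10: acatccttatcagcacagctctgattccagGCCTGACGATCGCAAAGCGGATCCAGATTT
Exon 14 to exon 15: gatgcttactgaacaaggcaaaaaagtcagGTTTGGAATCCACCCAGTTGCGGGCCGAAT
Exon 14 read through: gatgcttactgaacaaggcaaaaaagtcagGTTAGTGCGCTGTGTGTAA

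The join of exon 7 to exon 10 shares its left side with the first sequence and its right side with the second. A read with enough bases on both sides of it belongs to Nnt-201 and to no other annotated transcript of the locus. In windows of 100 nt, 97 of the 3023 windows of Nnt-201 were found in no other Nnt transcript, or 3.21%. Nnt-202 had 0 such windows of 3365 and Nnt-206 had 0 of 3240. All 3240 windows of Nnt-206 also occurred in Nnt-202, whereas 125 windows of Nnt-202 were absent from Nnt-206. The transcripts with intron sequence had more of their own, with 925 windows (29.8%) in Nnt-203, 1506 (67.2%) in Nnt-204 and 1139 (63.8%) in Nnt-205. None of the 7032 distinct windows of the locus occurred in an annotated transcript of another gene, in either orientation.

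Annotated genes took 35281187 expected counts in replicate 1 and 32301531 in replicate 2, and muscle markers were high in both. All 7 skeletal muscle markers stood at 167.8 TPM (a level scaled for transcript length and library depth) or more on average. The 6 epidermal markers summed to 9.60 TPM in replicate 1 and 746 TPM in replicate 2, and each was over 2-fold higher in replicate 2. Of all 12421 annotated genes averaging at least 100 counts, 1.67% were over 2-fold apart in either direction. Of 3 cardiac markers, Myh6 stood at 54.3 ± 8.61 TPM (SD, n = 2) from alignments and 23.8 ± 4.22 TPM from reads, Myl7 had 1 and 0 counts, and Nppa had 0 in either library, where a count of 0 allows for 3. The 3 liver markers summed to 7.32 and 12.3 TPM, so that these too were higher in replicate 2. The 3 markers listed for brown fat summed to 19.6 and 39.8 TPM, also higher in replicate 2. Most of that sum was Adipoq, which is not particular to brown fat, at 14.6 and 32.9 TPM. Ucp1 stood at 0.510 ± 0.255 TPM. The part of these cells in the values of Nnt was not tested.

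Summed over both identifiers, Nnt stood at like levels in the 2 animals. The locus had 4248 expected counts in replicate 1 and 3944 in replicate 2 in the alignment-based table. Per length and depth this was 46.17 TPM and 46.26 TPM, or 46.2 ± 0.0636 TPM. Between the libraries (replicate 2 over replicate 1, after TMM scaling of counts) the log2 ratio was -0.02, with an exact 95% counting interval of -0.09 to 0.04. The interval spans 0 and covers counting error only. The part of epidermal cells in this ratio was not tested. In bulk tissue, fewer cells of a type and less RNA per cell cannot be told apart.

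The table made directly from reads also gave like levels in the 2 animals. It held 4499 and 4224 estimated counts of the locus, or 68.2 and 70.5 TPM (69.3 ± 1.68 TPM). Which table was higher depended on the scale: rescaled over nuclear protein-coding genes, the locus stood at 110.7 ± 0.634 TPM from alignments and 94.6 ± 1.10 TPM from reads. The log2 ratio there was -0.01 (counting interval -0.07 to 0.05). By either table Nnt was a well expressed gene. It ranked 1420 among 21979 protein-coding symbols outside the mitochondrial genome in the alignment-based table and 1585 in the other. It lay above 88.3% of the 12151 such symbols at 1 TPM or more in both libraries, whose median was 10.8 TPM.

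The split of the locus between its 2 identifiers differed between the libraries and between the tables. ENSMUSG00000025453.18 had 3657 expected counts in replicate 1 and 3934 in replicate 2, or 39.93 and 46.15 TPM. ENSMUSG00000116207.1 had 591 expected counts in replicate 1 and 9.62 in replicate 2, or 6.24 and 0.11 TPM. The second identifier therefore held 13.9% of the locus in replicate 1 and 0.244% in replicate 2, where the exact 95% counting interval was 0.122 to 0.466%. In the table made directly from reads the order was turned round, with 1362 and 1329 counts for ENSMUSG00000025453.18 and 3137 and 2895 for ENSMUSG00000116207.1. There the second identifier held 69.7% in replicate 1 and 68.5% in replicate 2.

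**Figure D2:**
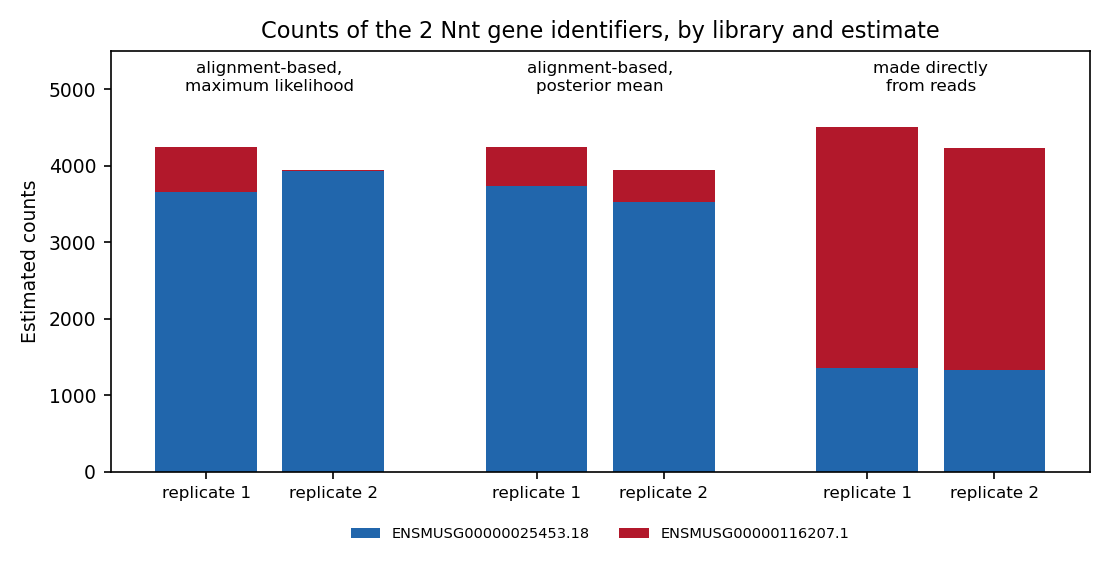
Stacked bars of the estimated counts of ENSMUSG00000025453.18 (blue) and ENSMUSG00000116207.1 (red) in each library, from 3 estimates, with 1 value per bar and no error bar. Bar heights stay between 3944 and 4499 counts, while the red part goes from 9.62 to 3137 counts.

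Taken as a gene of its own, ENSMUSG00000116207.1 differed between the libraries. Its log2 count ratio was -5.79 (counting interval -6.87 to -4.91), a 55.1-fold lower value in replicate 2. That was the second lowest of 12421 annotated genes averaging at least 100 counts, of which 13 (0.105%) were over 2-fold lower in replicate 2. In either direction, 65 of these genes had a larger log2 ratio in size. Over 2-fold in either direction were 1.67% of these genes, and 6.17% of those averaging at least 10 counts. The identifier passed these filters only through replicate 1, where it was high, so its rank is a description and no support. The counting interval covers sampling of reads only and not their assignment to identifiers. The same identifier had a log2 ratio of -0.03 (-0.11 to 0.04) in the table made directly from reads, where 1.64% of 12645 genes were over 2-fold apart in either direction. ENSMUSG00000025453.18 had log2 ratios of 0.19 (0.12 to 0.26) and 0.05 (-0.06 to 0.16) in the 2 tables.

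The alignment-based tables also give posterior mean counts, an average over possible assignments of the reads, and their SD. For ENSMUSG00000116207.1 the posterior mean was 521 counts in replicate 1 and 414 in replicate 2, with SDs of 281 and 285.8 counts. The posterior SD of ENSMUSG00000025453.18 was the same in each library, 281 and 285.8 counts, around means of 3727 and 3530. The sum of both identifiers was 4248 and 3944 counts, the same as from the expected counts. So a count that left 1 identifier went to the other. By posterior means ENSMUSG00000116207.1 held 12.3% and 10.5% of the locus, and its log2 ratio was -0.25 (-0.44 to -0.06). It was then not over 2-fold apart, beside 1.63% of 12430 genes that were.

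Bounds of TPM deposited with the gene tables, whose level is not stated, were wide for the second identifier. They ran from 0.00114 to 10.4 TPM in replicate 1 and from 5.35e-06 to 10.5 TPM in replicate 2. For ENSMUSG00000025453.18 they ran from 34.3 to 45.2 TPM and from 34.7 to 45.7 TPM, and in replicate 2 they did not contain its own value of 46.15 TPM. The bounds of the second identifier overlapped almost fully between the animals. Relative to the posterior mean, the SD of ENSMUSG00000116207.1 was 54.0% in replicate 1 and 69.0% in replicate 2. Only 37 of 12415 genes averaging at least 100 posterior counts had a larger relative SD in replicate 1, and 13 of 12430 in replicate 2.

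Within the locus, the protein-coding transcripts that reach the last exon took nearly all counts by both tables. Nnt-201, Nnt-202 and Nnt-206 together held 95.4% and 95.1% of expected counts in replicates 1 and 2, and 95.7% and 95.3% of the estimated counts made directly from reads. How the tables divided that share differed. Nnt-201, without exons 8 and 9, had 1789 and 1900 expected counts in the alignment-based tables but 160 and 386 in the others. Nnt-202 had 1672 and 1841 expected counts against 1007 and 745. By posterior means from alignments Nnt-202 had 1723 and 1411 counts, so its direction between the libraries turned with the estimate. Nnt-201 kept its direction, with posterior means of 1804 and 1921 counts. Nnt-206, with the counts of its identifier, led in the tables made directly from reads, and Nnt-201 and Nnt-202 led in the alignment-based ones.

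The leading transcript of ENSMUSG00000025453.18 also depended on the table. In the alignment-based tables Nnt-201 made up 50.67% of the identifier's TPM in replicate 1 and 49.96% in replicate 2. Nnt-202 made up 42.52% and 43.49%. By posterior mean TPM from alignments the shares were 50.09% and 55.75% for Nnt-201, and 42.97% and 36.79% for Nnt-202. In the tables made directly from reads Nnt-202 led, at 68.8% and 50.6%, and Nnt-201 followed at 12.3% and 29.5%. The log2 count ratio of Nnt-201 between the libraries was 1.35 there (counting interval 1.08 to 1.63), against 0.17 (0.08 to 0.27) from alignments. These intervals cover sampling of reads only and not their assignment to transcripts. Of the 3 Nnt transcripts averaging at least 100 counts, 1 was over 2-fold apart in each kind of table, Nnt-206 from alignments and Nnt-201 from reads. Over all such transcripts the share was 5.66% of 20247 and 5.76% of 21579. From alignments, Nnt-206 passed that filter only through replicate 1, where it was high. Nnt-206, as the only transcript of its identifier, held 100% of it throughout.

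Summed by content, transcripts that hold exons 8 and 9 stood at 24.4 and 21.2 TPM in the alignment-based tables, beside 20.2 and 23.1 TPM for Nnt-201. Inclusion of the 2 exons, as a share of the TPM of the 4 transcripts that span exons 7 to 10, was 54.7% in replicate 1 and 47.9% in replicate 2. In the tables made directly from reads it was 96.1% and 89.9%. The gap between the tables was wider than that between the animals. Inclusion was lower in replicate 2 by either table, but both tables come from the same libraries. The deposited bounds of Nnt-201 overlapped between the libraries (17.2 to 22.8 TPM in replicate 1, 19.9 to 25.7 TPM in replicate 2). So did those of Nnt-202 (11.5 to 22.5 TPM and 8.14 to 20.7 TPM). If reads were spread evenly along Nnt-201, the 97 windows found in it alone would hold 57.4 and 61.0 of the expected counts, against 5.13 and 12.4 of the estimated counts made from reads.

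**Figure D3:**
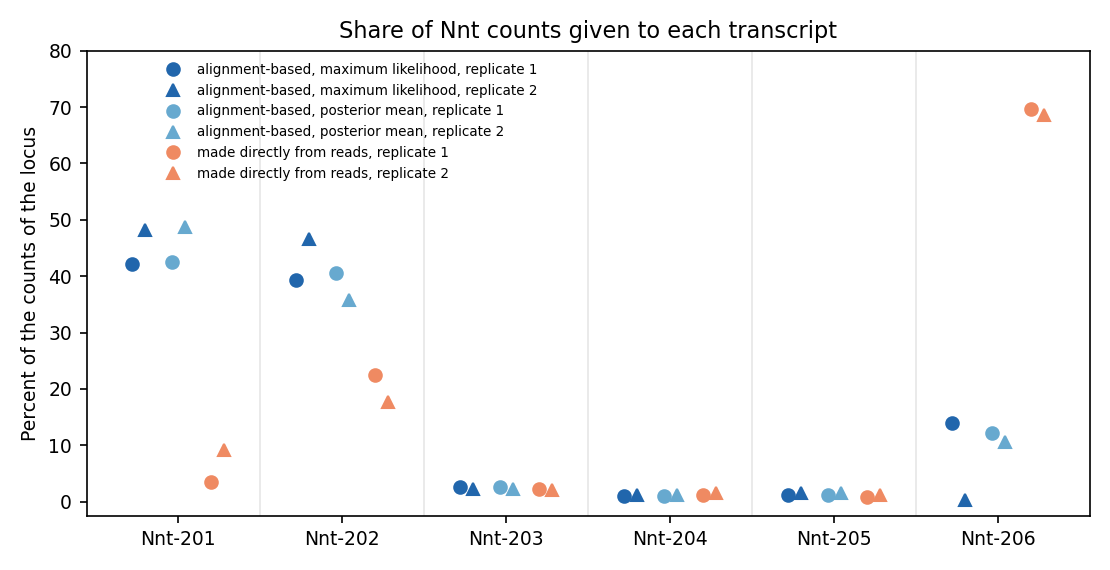
Percent of the counts of the Nnt locus given to each of the 6 transcripts, with circles for replicate 1 and triangles for replicate 2 and a colour for each of 3 estimates. Nnt-201, Nnt-202 and Nnt-206 change place between estimates, and Nnt-203, Nnt-204 and Nnt-205 stay between 0.879% and 2.58% in all of them.

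The minor transcripts had like values in both animals and by both tables. Nnt-203, which ends in the intron after exon 14, had 106 and 89.2 expected counts and 102 and 85.0 estimated counts made from reads, or 1.17 and 1.06 TPM from alignments. Nnt-204 had 43.6 and 44.8 expected counts and 54.4 and 61.9 estimated counts. Nnt-205 had 46.2 and 60.0 expected counts and 39.5 and 50.8 estimated counts. All 3 log2 ratios between the libraries had counting intervals that spanned 0 by either table, but with these low counts the intervals were wide. For Nnt-205 the log2 ratio was 0.46 (-0.11 to 1.05) from alignments and 0.44 (-0.19 to 1.07) from reads, which does not exclude a 2-fold difference. The retained introns together made up 3.36% and 4.24% of the TPM of the locus from alignments and 3.49% and 4.45% from reads. Total RNA holds unspliced precursors as well as mature RNA, which these counts do not separate.

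Transcripts with much sequence of their own were those on which the tables came close. For Nnt-203, Nnt-204 and Nnt-205 the counts of the 2 tables differed by 1.04-fold to 1.38-fold over both libraries. For Nnt-202, without a window of its own, they differed by 1.66-fold and 2.47-fold. For Nnt-201, with 3.21% of its windows, they differed by 11.2-fold and 4.92-fold, and for Nnt-206, with none, by 5.31-fold and 301-fold. This is a description of 6 transcripts that share reads, so no correlation is given.

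**Figure D4:**
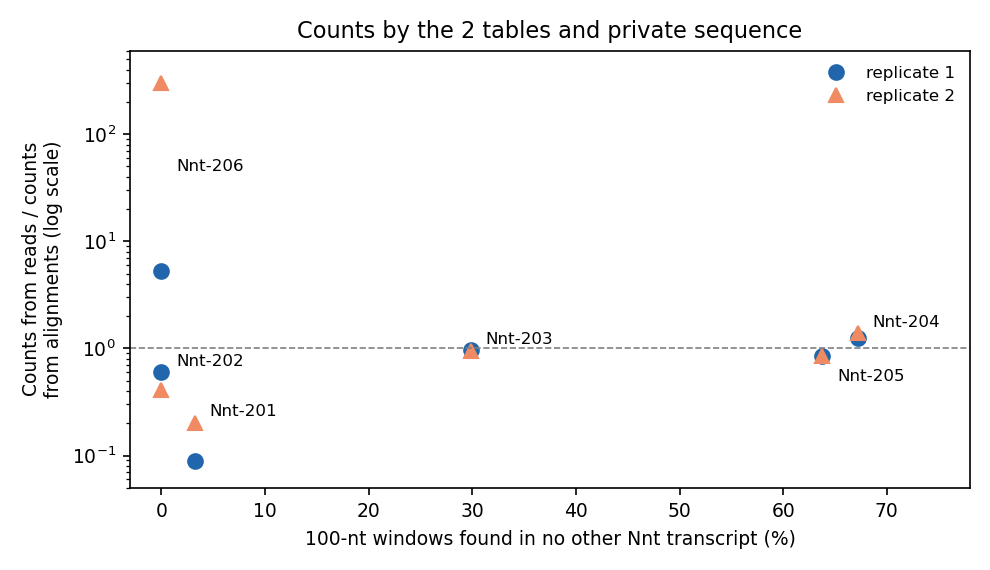
Estimated counts made directly from reads divided by expected counts from alignments (y, log scale) against the percent of 100-nt windows that a transcript shares with no other Nnt transcript (x), with circles for replicate 1 and triangles for replicate 2. The 3 transcripts at 29.8% or more lie near the dashed line at 1, and the 3 at 3.21% or less lie from 0.0894 to 301.

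Other symbols with more than 1 gene identifier were compared in the same way. There were 108 of them, and 26 averaged at least 100 counts summed over their identifiers. In 20 of these the table made directly from reads held counts too. The identifier with the most expected counts also led by the other table, on the mean of both libraries, in all but 3 of the 20, and Nnt was 1 of those 3. Averaged over the libraries, the share of ENSMUSG00000025453.18 moved from 92.9% ± 9.67 to 30.9% ± 0.839, a shift of 62.1 percentage points. This was the largest of the 20, whose median was 5.31 points. The gap between the 2 libraries in the alignment-based share, 13.7 points, was the third largest, beside a median of 2.46.

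The 3 symbols nearest to Nnt in that share were Chtf8, Ptp4a1 and Gcat. Chtf8, a subunit of a clamp loader of DNA replication, had 94.9% in its leading identifier by alignments and 100% from reads. Ptp4a1, a protein tyrosine phosphatase, had 96.1% and 82.4%. Gcat, a mitochondrial enzyme of threonine breakdown, had 89.0% and 83.5%. The leading identifier of these 3 stayed the same by both tables, and that of Nnt did not.

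Nnt lay above the median of a list of mitochondrial NADPH and antioxidant genes. Its 20 members are 8 sources of NADPH or its precursors, 8 genes of the glutathione, thioredoxin and peroxidase systems, and 4 other redox and carrier genes. Levels were taken over all transcripts of a gene identifier, so they do not tell mitochondrial from other forms of an enzyme. The list had a median of 24.5 ± 2.23 TPM from alignments, beside 46.2 TPM for the Nnt locus and 5.86 ± 0.148 TPM over the 17998 genes averaging at least 10 counts. In both libraries 7 of the 20 were above the Nnt locus and 13 below. All 20 stood at 1 TPM or more. None was over 2-fold apart between the animals, beside 1.67% of the 12421 genes averaging at least 100 counts.

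Among the 8 listed sources of NADPH or its precursors, only Idh2 and Glud1 were above Nnt in both libraries and in both tables. Idh2, the NADP-linked isocitrate dehydrogenase of mitochondria, stood at 176.51 and 174.04 TPM, or 3.82 and 3.76 times the Nnt locus. Glud1, glutamate dehydrogenase, stood at 54.08 and 55.80 TPM. Nadk2, the mitochondrial kinase that makes NADP from NAD, stood at 14.6 ± 0.750 TPM, and the malic enzymes Me3 and Me2, of which Me2 mainly uses NAD, at 13.4 ± 1.87 and 6.01 ± 0.587 TPM. The folate enzymes Mthfd2l, Aldh1l2 and Mthfd2 stood at 8.79 ± 0.255, 5.88 ± 1.19 and 3.85 ± 0.679 TPM. The Nnt locus was thus 3.06-fold to 13.7-fold above these 6 genes in each library from alignments, and 2.79-fold to 8.87-fold above them from reads.

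The 8 genes of the glutathione, thioredoxin and peroxidase systems had a median of 42.2 ± 1.66 TPM. The other members with the highest levels were Gpx4, which reduces lipid peroxides, at 138.27 and 168.65 TPM, and Txn2, mitochondrial thioredoxin, at 62.01 and 57.53 TPM. The carrier Slc25a11, which exchanges oxoglutarate for malate, stood at 90.64 and 83.27 TPM. Sod2, the superoxide dismutase of the matrix, stood at 88.49 and 72.45 TPM. Prdx3, a mitochondrial peroxiredoxin, lay just under the Nnt locus at 44.59 and 42.86 TPM, and Txnrd2, mitochondrial thioredoxin reductase, was lowest of these 8 at 4.24 ± 0.191 TPM. Prdx3 and Txnrd2 were chosen after their values were seen.

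**Figure D5:**
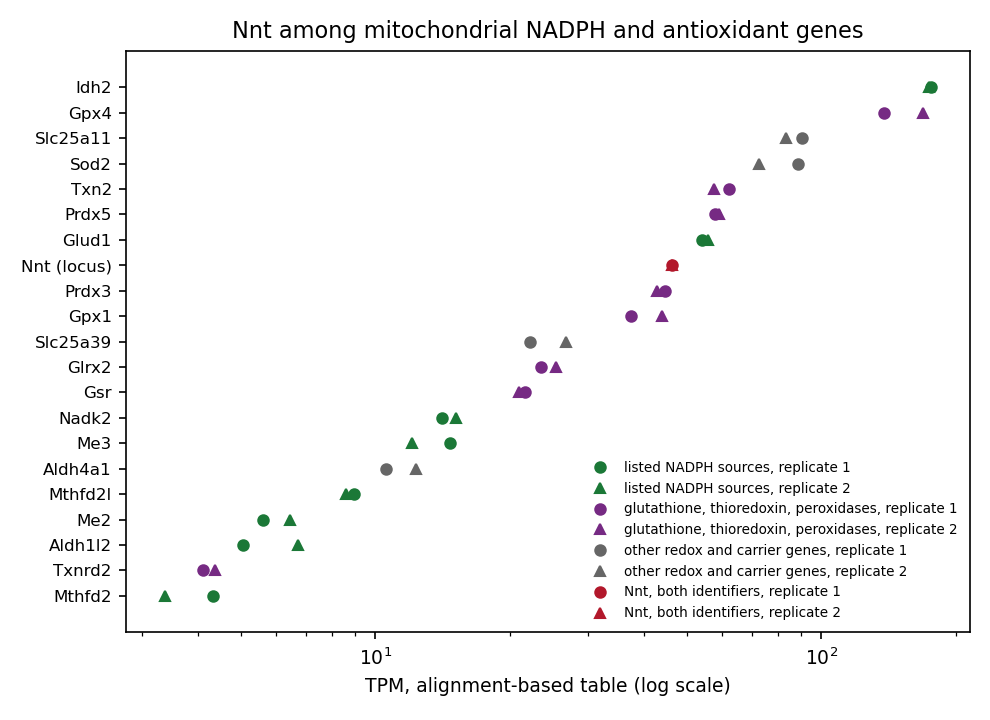
TPM from the alignment-based table (x, log scale) of the Nnt locus, summed over both identifiers, and of 20 listed NADPH and antioxidant genes. Circles are replicate 1 and triangles are replicate 2. The Nnt points at 46.17 and 46.26 TPM overlie each other, with 7 genes above them and 13 below.

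The genes closest to the Nnt locus in level were chosen by distance on the log2 scale of TPM plus 0.1, over the 2 libraries. Rad21, a cohesin subunit, was closest at 46.21 and 46.11 TPM (distance 0.0048). Wac, Ube3a, Ubr4 and Hdac2 followed at distances of 0.013 to 0.022. In the table made directly from reads, where the Nnt locus stood at 68.2 and 70.5 TPM, these 5 genes were farther apart. Wac stood there at 75.2 and 77.0 TPM and Ube3a at 77.5 and 77.9 TPM. Rad21 stood at 95.5 and 95.8 TPM, Hdac2 at 100.2 and 98.5 TPM, and Ubr4 at 51.8 and 50.7 TPM.

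The nearest annotated neighbours on chromosome 13 differed from each other. Paip1, which binds the poly(A)-binding protein and promotes translation, starts 19603 nt from the 5′ end of Nnt on the opposite strand (119428601 to 119458218). It stood at 41.16 and 41.37 TPM from alignments and at 79.8 and 85.1 TPM from reads. On the other side, 55902 nt away, the lincRNA Gm47336 (119271619 to 119279545) had a count of 0 in each library, which allows for 3.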

How the data were processed

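Each library was deposited with expected counts, posterior mean counts, TPM and, by transcript, a percent of its gene, in columns named as RSEM names them. Estimated counts and TPM made directly from reads were deposited in other transcript tables, under column names that kallisto writes. The deposited bounds of TPM are a signal with no stated level. The deposited notes give mm10 and GENCODE M21. The aligner was not given in the sources used here, nor whether counting used strand. Ratios between libraries were taken after TMM scaling (the trimmed mean of M-values; edgeR 4.0.16 in R 4.3.3) on annotated genes averaging at least 10 counts, and 0.5 was added to each count. Whole numbers were used for the scaling and for exact Clopper-Pearson 95% intervals, which cover counting error only. The code for ratios was checked on simulated gene counts with known folds. That check held no assignment of reads between overlapping identifiers, so it says nothing of that source of error. Numbered entries that name no gene held 4 and 6 counts and were left out.

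Members, lists and tests were chosen with earlier results of these data known. Named were all Nnt identifiers and transcripts, overlapping or nearest genes, 8 NADPH sources and the 4 highest others of the list, the 5 genes nearest in level, and 3 symbols nearest in share. No test between groups was possible with 1 group.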

Additional observations from a re-analysis of the deposited data

How the results depend on the processing

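The level of the locus, 46.2 TPM, was 69.3 TPM in the table made directly from reads and 111 TPM when rescaled over nuclear protein-coding genes, against 94.6 TPM from reads rescaled likewise. Made directly from reads, the share of ENSMUSG00000025453.18 was 30.9%, the share of Nnt-201 in its identifier 20.9%, inclusion of exons 8 and 9 was 93.0%, and the list median 46.5 TPM. Posterior mean TPM, an estimate chosen after seeing the data, gave Nnt-201 52.9% of its identifier. Spike-in totals moved the log2 ratio of the locus to 0.055, and totals without scaling gave 0.02. DESeq2 size factors gave -0.05, so the sign of this ratio, -0.02 after TMM scaling, turned with spike-in totals and with totals. Among genes averaging at least 10 counts, 1111 were over 2-fold apart, against 208 at 100 counts. Without either replicate, the share of ENSMUSG00000025453.18 ranged from 86.1 to 99.8% and inclusion from 47.9 to 54.7%. The cause of these shifts was not tested. No paired analysis was possible because there is 1 group.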

Other observations

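Besides ENSMUSG00000116207.1, 2 other entries among genes averaging at least 100 counts were over 4-fold lower in replicate 2, both noticed after the values were seen. An identifier of Rnu3a, a small nucleolar RNA of the U3 family, had 526 expected counts in replicate 1 and 0 in replicate 2, which allows up to 3 counts. Gm6565 had 232 and 4.43 expected counts. Both, like ENSMUSG00000116207.1, passed the filter of 100 counts only through replicate 1, where they were high. Rnu3a, like Nnt, is a symbol with more than 1 gene identifier, and Sssca1 and Zc3h11a were the other symbols whose leading identifier, by the mean share, changed between the tables. For Sssca1 the share of the leading identifier went from 73.7% to 31.3%, and for Zc3h11a from 56.2% to 36.6%, as means of the libraries. The share of Zc3h11a from alignments was 63.3% in replicate 1 and 49.2% in replicate 2, so that this identifier led in replicate 1 only.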
